A study of Homo sapiens with 4 samples.

Results

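The transforming growth factor-beta (TGF-beta) core pathway was followed through 10 genes: the ligands TGFB1, TGFB2 and TGFB3, the receptors TGFBR1, TGFBR2 and TGFBR3, the receptor-activated SMAD2 and SMAD3, the common-partner SMAD4 and the inhibitory SMAD7. Members were chosen by name and found on the array through the RefSeq accession printed for each probe, which gave 15 probes among 41000 and 10 genes among 16422. RNA came from 4 breast cancer cultures, each measured on 1 one-colour (Cy3) Agilent whole-genome array: vehicle-treated parental SkBr3, vehicle-treated parental BT474, and a lapatinib-resistant clone of each line, SkBr3/Lap and BT474/Lap. SkBr3 and BT474 are established human breast cancer cell lines with amplified ERBB2 (HER2), and lapatinib is a kinase inhibitor of EGFR and HER2. The clones were obtained by raising lapatinib to 1 µM, so each resistant group is 1 clone, and each of the 4 groups holds 1 array. A difference between arrays therefore has no replicate check, and values below describe these cultures. For its immunoblots the study kept the clones in 1 µM lapatinib, while the parents here had vehicle. Lapatinib exposure and acquired resistance thus cannot be told apart when a clone is compared with its parent.

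TGF-beta ligands are secreted in a latent form and, once released, bind the type II receptor TGFBR2, which recruits and phosphorylates the type I receptor TGFBR1. TGFBR1 then phosphorylates SMAD2 and SMAD3, which join SMAD4 and enter the nucleus to switch genes on or off, while SMAD7 is induced by the pathway and blocks the receptor. In breast epithelium the pathway is known for growth arrest in early disease and for invasion and epithelial-mesenchymal transition in advanced disease.

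In SkBr3/Lap, TGFB3 and SMAD4 were lower and TGFBR2 and TGFBR3 higher than in SkBr3 by 2-fold or more. In BT474/Lap, TGFB3 was lower and TGFBR3 higher than in BT474, and no other member reached 2-fold. The fall of TGFB3 and the rise of TGFBR3 were thus the 2-fold changes found in both clones. Of the 10 members, 8 had a probe with a signal of at least 100 on at least 1 array and were compared, and TGFB1 and TGFB2 stayed under that minimum. TGFBR3 reached it on the 2 clone arrays alone, so it could enter only as a gene that differed, and its counts are a description. In SkBr3/Lap, 2 of the 8 members were 2-fold higher and 2 were 2-fold lower, where 13.5% of all 12159 genes compared in this way were higher, 13.0% were lower and 26.4% passed 2-fold either way. In BT474/Lap, 1 member was higher and 1 lower, against 8.6% and 5.15% of genes, and 13.8% either way. A 2-fold rise in both clones was found for 1 member and 2.46% of genes, a 2-fold fall in both for 1 member and 1.21%, and 2-fold changes in opposite directions for 0 members and 2.57%. Levels are given as the processed signal of a probe, and changes as the difference in log2 signal after the 75th percentile of each array was subtracted.

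**Figure D1:**
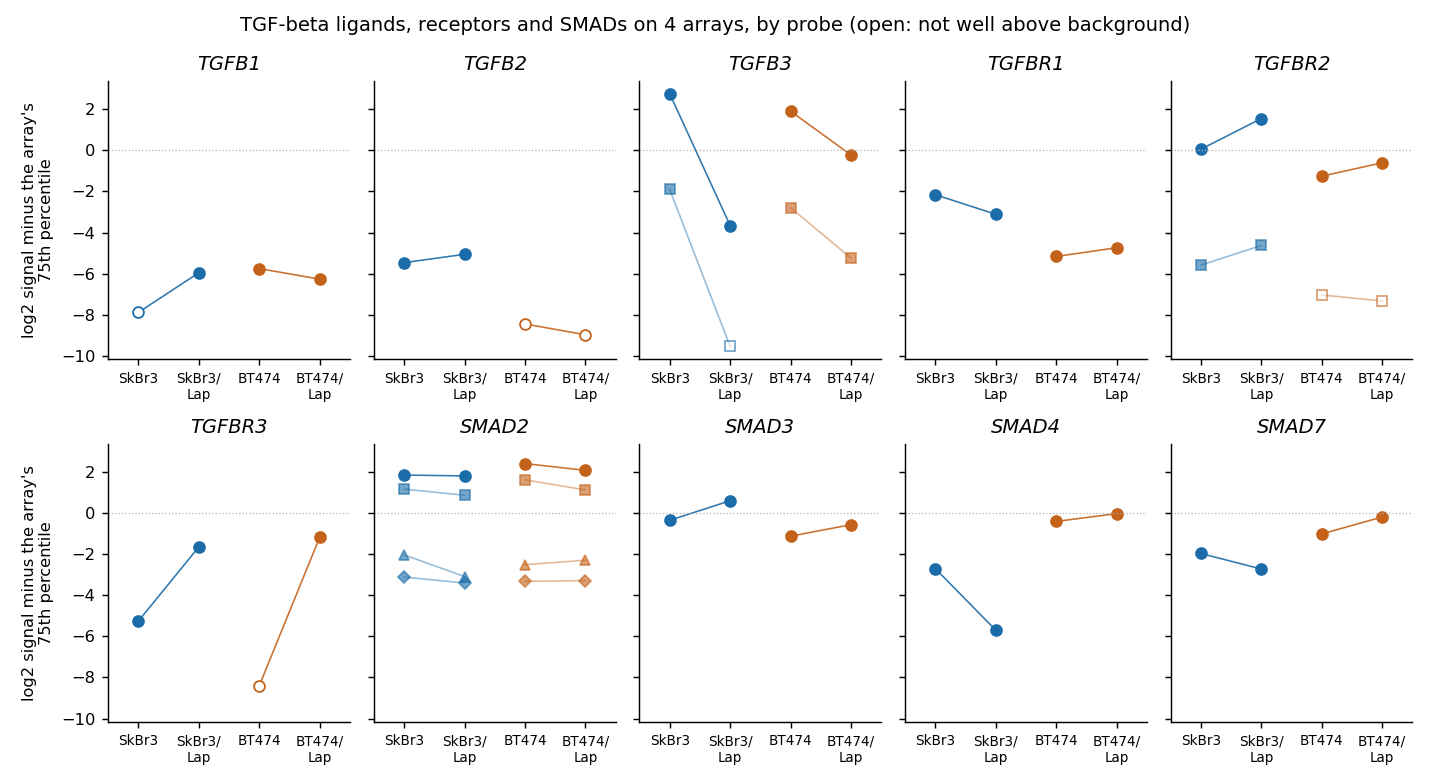
Level of every probe of the 10 genes on the 4 arrays, as log2 signal minus the array's 75th percentile (y axis), with a line from each parental culture to its resistant clone. Circles are the probe used for the gene, or the lone probe of a gene under the signal minimum, other symbols are further probes, and open symbols were not well above background. Levels of different probes are not comparable, and within a panel TGFB3 falls and TGFBR3 rises from parent to clone in both lines.

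On the 4 arrays 66.6% to 74.0% of probes were well above background, and no spot was saturated. The 75th percentile of signal was 1115 in SkBr3 and 2074 in SkBr3/Lap, and 1158 in BT474 and 1681 in BT474/Lap. Each clone array was thus brighter than the array of its parent. Signals are given, and the minimum of 100 was applied, before scaling, so the minimum was a lower scaled level on the clone arrays. ERBB2 gave a signal between 118700 and 256300 on the 4 arrays. After scaling, it was 3.74-fold lower in SkBr3/Lap than in SkBr3 and 1.57-fold lower in BT474/Lap than in BT474, and its amplicon neighbour GRB7 was 2.29-fold and 1.14-fold lower. Of the 7 luminal HER2 epithelial markers examined, 7 were well above background on both BT474 arrays and 6 on both SkBr3 arrays, where CDH1 (E-cadherin) was not. Markers of other cell types moved in SkBr3/Lap, with signals summed before scaling. The sum of 7 fibroblast genes went from 30.8 to 469, with COL3A1 giving 347 of it. That of 5 endothelial genes went from 196 to 1424, of which CDH5 gave 915. For 6 leukocyte genes it went from 7887 to 53860, of which LCP1 gave 51320. The defining leukocyte gene PTPRC was not well above background on any array, and the same held for COL1A2, LUM, DCN and PDGFRA among the fibroblast genes. In BT474/Lap the 3 sums, also before scaling, went from 29.4 to 32.2, from 914 to 669 and from 2240 to 3262. The greater brightness of the clone arrays is part of all these sums. The part of these markers in the member changes was not tested. The SkBr3/Lap array lay on a slide of its own with its own scan, whereas the other 3 shared a slide, so slide and resistance cannot be told apart for SkBr3.

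The ligand TGFB3 showed the widest range of any member that was well above background on all 4 arrays. Its brighter probe gave a signal of 7536 in SkBr3 and 164 in its clone, and 4331 in BT474 and 1436 in its clone. Both parents were high, BT474/Lap was intermediate and SkBr3/Lap was lowest. The change was -6.42 on the log2 scale in SkBr3/Lap, 85.5-fold lower, and -2.13 in BT474/Lap, 4.38-fold lower. In SkBr3/Lap this ranked 26th from the lowest of 11268 genes measured on both arrays, and in BT474/Lap 116th of 11555. The SkBr3/Lap change was -5.53 with normexp background correction and quantile normalization, and -5.90 as the mean over both probes with the second, described next, at its bound. The second TGFB3 probe gave 299 in SkBr3 and 2.78 in its clone, and 167 in BT474 and 44.4 in its clone. On SkBr3/Lap it was not well above background, so the fall was at least 41.8-fold there, taken against the lowest signal among probes well above background, while in BT474/Lap it was 5.47-fold lower. The 2 probes thus moved the same way in both clones. In RNA from a whole culture, fewer cells that express a gene and less RNA per cell cannot be told apart.

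The ligands TGFB1 and TGFB2 were near background. TGFB1, the prototype ligand of the family, was spotted 10 times on each array with a mean signal of 4.72 in SkBr3 and 33.5 in its clone, and 21.4 in BT474 and 21.8 in its clone. Only 1 of its 10 spots was well above background in SkBr3, against 10 in SkBr3/Lap and 8 on each BT474 array. The SkBr3/Lap level was at least 1.12-fold above SkBr3, and the change in BT474/Lap was -0.51 on the log2 scale. TGFB2 gave 25.2 in SkBr3 and 62.2 in SkBr3/Lap, a log2 change of 0.41, and gave 3.32 and 3.34 on the BT474 arrays, where it was not distinguished from background. Neither gene reached the signal minimum of 100, and neither was counted.

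Among the receptors, TGFBR3 (betaglycan), a co-receptor that presents ligand to TGFBR2 and binds TGF-beta 2 most avidly, was the member that rose most. Its signal was 29.3 in SkBr3 and 664 in its clone, and 3.44 in BT474 and 748 in its clone. Parents were low and clones high in both lines. The rise was 12.2-fold in SkBr3/Lap, a log2 change of 3.61 that ranked 150th from the highest of 11268 genes. This rank is a description, since TGFBR3 passed the signal minimum through the clone arrays alone. BT474 was not well above background, so the rise in BT474/Lap was at least 32.3-fold. Since the low parental signals lie close to background, the size of the change depends on how background is treated: with normexp background correction and quantile normalization, it was 2.47 on the log2 scale in SkBr3/Lap and 3.16 in BT474/Lap.

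The 5′ flanks of TGFB3 and TGFBR3 are shown because these are the members that moved 2-fold the same way in both clones, and that of SMAD4 because it moved 2-fold in 1 clone alone. Each window spans 250 bases before to 50 bases after the 5′-most annotated start site (RefSeq, GRCh38.p14), read 5′ to 3′ on the gene's strand. TGFB3 had 2 annotated start sites, and TGFBR3 and SMAD4 had 1 each. Start sites of a member other than the 5′-most were not read. Capitals mark exact matches, on either strand, to the SMAD-binding letters CAGAC or GTCTAGAC, the CRE letters TGACGTCA, the GC box letters GGGCGG or the TATA letters TATAAA.
TGFB3 (chr14:75982962-75983261, minus strand): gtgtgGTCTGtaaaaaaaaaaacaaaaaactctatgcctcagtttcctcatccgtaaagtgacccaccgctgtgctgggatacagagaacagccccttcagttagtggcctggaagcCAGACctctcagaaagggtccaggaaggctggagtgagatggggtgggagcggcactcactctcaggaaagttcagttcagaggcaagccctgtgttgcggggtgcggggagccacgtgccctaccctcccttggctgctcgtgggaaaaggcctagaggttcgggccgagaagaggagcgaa
TGFBR3 (chr1:91886102-91886401, minus strand): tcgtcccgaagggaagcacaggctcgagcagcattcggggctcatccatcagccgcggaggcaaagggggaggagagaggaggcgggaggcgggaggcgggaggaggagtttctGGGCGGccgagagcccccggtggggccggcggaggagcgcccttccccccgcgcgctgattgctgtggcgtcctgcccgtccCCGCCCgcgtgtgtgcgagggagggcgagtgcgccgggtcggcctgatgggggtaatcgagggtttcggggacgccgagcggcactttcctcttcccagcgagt
SMAD4 (chr18:51029963-51030262, plus strand): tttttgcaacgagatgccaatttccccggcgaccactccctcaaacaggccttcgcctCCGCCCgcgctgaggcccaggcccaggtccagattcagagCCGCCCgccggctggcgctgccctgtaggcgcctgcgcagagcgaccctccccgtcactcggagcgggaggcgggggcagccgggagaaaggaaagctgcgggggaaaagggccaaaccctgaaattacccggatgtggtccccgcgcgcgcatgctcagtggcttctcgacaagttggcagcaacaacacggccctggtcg
The TGFB3 window held CAGAC 245 and 133 bases before the start and no GC box. The TGFBR3 window held GGGCGG 136 and 54 bases before the start and no CAGAC, as the SMAD4 window held GGGCGG 192 and 152 bases before it. Base composition differed too, with a GC content of 56.0% and 10 CpG in TGFB3, 71.7% and 34 CpG in TGFBR3, and 66.7% and 28 CpG in SMAD4. These motifs are common: CAGAC was present in 45.3% and GGGCGG in 45.0% of 35116 promoter windows of the same length, against 0.202% for GTCTAGAC, 1.85% for TGACGTCA and 11.5% for TATAAA. Of the 10 members, CAGAC lay in the windows of TGFB2, TGFB3, SMAD3 and SMAD7, and TATAAA in that of TGFB2, 29 bases before the start. A match of letters is a description of the window and not a binding site.

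TGFBR2, the ligand-binding kinase, gave a signal of 1159 in SkBr3 and 6059 in its clone, and 484 in BT474 and 1106 in its clone on its brighter probe. Each clone was above its parent. The change was 1.49 on the log2 scale (2.81-fold) in SkBr3/Lap, which ranked 749th from the highest, and 0.65 (1.57-fold) in BT474/Lap, under the 2-fold line. Its dim second probe (23.2, 83.8, 8.81 and 10.5 in the same order) changed by 0.95 in SkBr3/Lap and was not well above background on the BT474 arrays. TGFBR1, the kinase that phosphorylates SMAD2 and SMAD3, gave 249.6 in SkBr3 and 239.96 in its clone, and 32.3 in BT474 and 62.9 in its clone. After scaling, its log2 change was -0.95 in SkBr3/Lap and 0.43 in BT474/Lap, under 2-fold each way and of opposite sign.

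**Figure D2:**
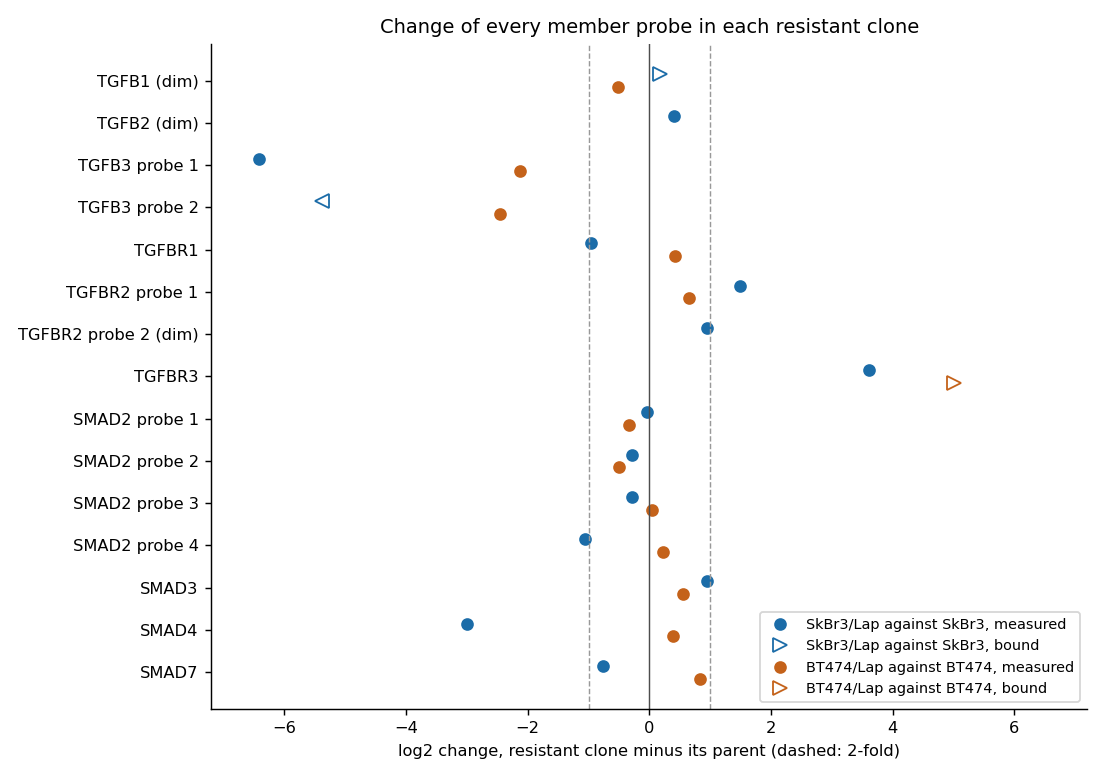
Log2 change of each of the 15 member probes from parent to resistant clone (x axis, dashed lines at 2-fold), with SkBr3/Lap in blue and BT474/Lap in orange. Filled circles were well above background on both arrays, open triangles are bounds that point the way the true change lies, and a probe under the signal minimum is marked dim. TGFB3 lies left of the 2-fold line and TGFBR3 right of it for both clones, and SMAD4 lies left of it for SkBr3/Lap alone, where it was 7.98-fold lower.

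SMAD4, the shared partner of SMAD2 and SMAD3, differed most between the clones among the SMADs. Its 10 spots averaged a signal of 171 in SkBr3 and 39.9 in its clone, and 872 in BT474 and 1649 in its clone. SkBr3/Lap was lowest and both BT474 cultures were above both SkBr3 cultures. The change was -2.996 on the log2 scale in SkBr3/Lap (7.98-fold lower, ranked 221st from the lowest of 11268) and 0.38 in BT474/Lap. The SD over the 10 spots of an array was between 0.045 and 0.170 log2, and the spots of SkBr3 and SkBr3/Lap did not overlap. That spread covers spotting and scanning on 1 array and not a second culture or hybridisation. With normexp background correction and quantile normalization, the SkBr3/Lap change was -1.61.

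SMAD2 and SMAD3 carry the signal from the receptor. SMAD3, also spotted 10 times, averaged 872 in SkBr3 and 3140 in its clone, and 530 in BT474 and 1135 in its clone. The log2 change was 0.95 in SkBr3/Lap and 0.56 in BT474/Lap, with SEs over spots alone of 0.035 and 0.036 and no overlap between the spots of clone and parent. Both were under 2-fold, though the SkBr3/Lap change passed it, at up to 1.20, under 2 of the alternative scalings. SMAD2, on 4 probes, moved little. Its brightest probe averaged 4015 in SkBr3 and 7250 in its clone, and 6146 in BT474 and 7089 in its clone, log2 changes of -0.04 and -0.33 after scaling, the first of which became 0.21 when arrays were scaled on their probes above background alone. The other SMAD2 probes gave -0.29, -0.29 and -1.05 in SkBr3/Lap and -0.49, 0.04 and 0.22 in BT474/Lap, so 1 probe of the 4 passed 2-fold in SkBr3/Lap. For comparison, 3566 genes had 2 or more kept probes that were well above background on all 4 arrays. Such probes of the same gene spanned 0.28 log2 at the median in either clone.

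**Figure D3:**
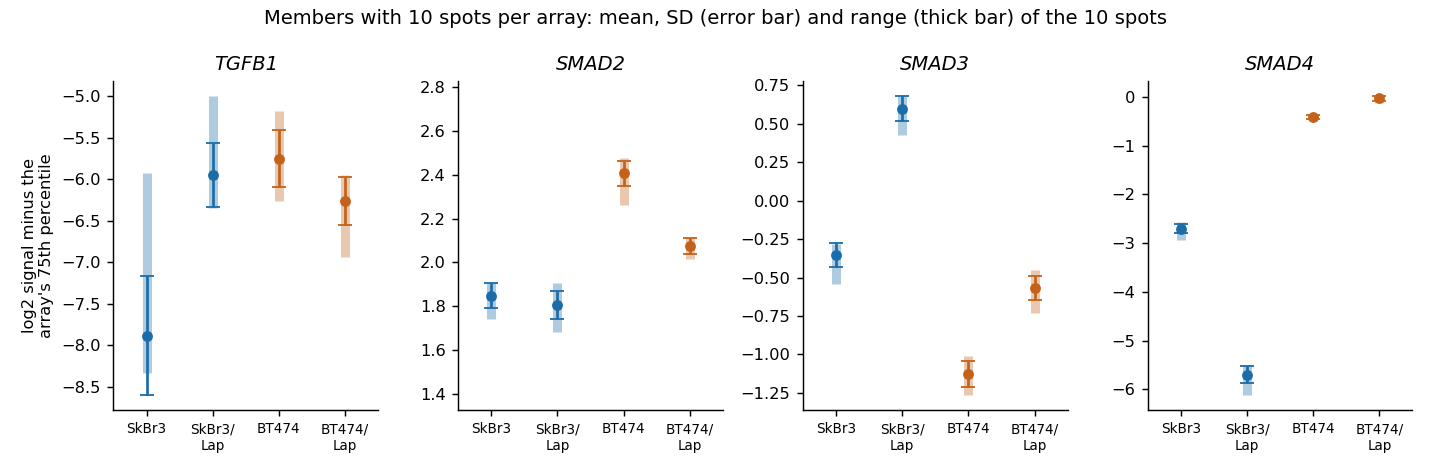
The 4 members spotted 10 times on each array, as log2 signal minus the array's 75th percentile (y axis, scale differs between panels), with the mean (point), SD (error bar) and range (thick bar) of the 10 spots. SMAD4 separates all 4 arrays, SMAD3 is higher in each clone than in its parent, the SMAD2 spots of SkBr3 and SkBr3/Lap overlap, and TGFB1 spreads most where its signal is near background.

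SMAD7, the feedback inhibitor, gave 285 in SkBr3 and 314 in its clone, and 572 in BT474 and 1473 in its clone. Its log2 change was -0.76 in SkBr3/Lap and 0.83 in BT474/Lap, under 2-fold and of opposite sign. The BT474/Lap value reached 1.11 under the same alternative scaling.

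The difference between resistant clones and parents over both lines was tested with limma, with cell line as a block and 1 residual degree of freedom. No probe passed an adjusted p of 0.05 among 25927, while 900 (3.47%) had an unadjusted p below 0.05. The mean log2 change of TGFB3 was -4.27 on the brighter probe (SE 1.22, unadjusted p = 0.031, limma adjusted p = 1.0) and negative in 2 of 2 lines. In fits with no cell line term, it was -2.56 without the SkBr3/Lap array and -5.99 without the BT474/Lap array. Each of these 2 values compares the remaining clone with the mean of both parents. No p is given for TGFBR3, which entered the fit through its clone arrays alone. The other members had an unadjusted p between 0.0951 and 0.955. With 1 array per group these values say little either way about members that did not pass.

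The parental lines differed in the receptors and in SMAD4. Relative to BT474, SkBr3 was higher for TGFBR1 by 3.01 on the log2 scale (8.04-fold, ranked 260th from the highest of 11059 genes) and for TGFBR2 by 1.31 (2.49-fold), and lower for SMAD4 by 4.90-fold (-2.29). The TGFBR1 difference was 1.93 with normexp background correction and quantile normalization. TGFBR1 reached the signal minimum on the SkBr3 and SkBr3/Lap arrays alone. It could thus enter only through the line where it was high, and its rank and count here are descriptions. Of the 8 members, 2 were thus higher and 1 was lower in SkBr3 past the 2-fold line, against 18.7% and 19.0% of all genes, or 37.7% either way. TGFBR3 was at least 1.91-fold higher in SkBr3, and TGFB3, SMAD3, SMAD2 and SMAD7 differed by 0.85, 0.77, -0.56 and -0.95. The SMAD4 difference between SkBr3 and BT474 and its fall in SkBr3/Lap both use the SkBr3 array.

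Among genes well above background on all 4 arrays, those with the pattern most like TGFB3 were TRIP6, TSPAN9 and ME1. Likeness was the root mean square difference of the 4 centred log2 values over 10932 genes, and came to 0.40, 0.53 and 0.57. TRIP6 changed by -7.10 in SkBr3/Lap and -1.32 in BT474/Lap, TSPAN9 by -6.06 and -0.91, and ME1 by -6.75 and -0.57. All 3 fell further in SkBr3/Lap than in BT474/Lap, as TGFB3 did, but over 4 arrays many genes can be close by this measure.

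The wider pathway was read from 87 further genes in 8 lists, of which 74 passed the signal minimum. A gene could pass through the arrays where it was high alone, so counts and medians over these genes are descriptions. In SkBr3/Lap 11 were 2-fold higher and 10 lower, where 13.5% and 13.0% of all genes were, with a list median of 0.00 on the log2 scale against -0.04 over all genes. In BT474/Lap 11 were higher and 3 lower, where 8.6% and 5.15% of all genes were, with a median of 0.11 against -0.08. THBS1 and NEDD9 were higher in both clones (2.46% of all genes), IL11 was lower in both (1.21%), and FBN1, GDF11 and ID1 passed 2-fold in opposite directions (2.57%).

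Genes that hold or release latent ligand included THBS1 (thrombospondin 1, an activator of latent TGF-beta), whose signal was 1307 in SkBr3 and 9825 in its clone, and 1872 in BT474 and 6451 in its clone. The brighter probe was 4.04 times its parental level in SkBr3/Lap and 2.37 times in BT474/Lap, although its second probe gave a log2 change of 0.51 in BT474/Lap. PLAU (urokinase, a plasminogen activator) had the largest change of the list in SkBr3/Lap, 32.5-fold lower, from 913 to 52.2, and was 1.98-fold higher in BT474/Lap. LRRC32 (GARP, a cell-surface anchor of latent TGF-beta) was 7.42-fold higher in BT474/Lap, from 42.5 to 457, and gave 4.65, not well above background, in SkBr3 and 27.2 in SkBr3/Lap. FBN1 (fibrillin 1, which tethers latent complexes in the matrix) went down from 260 to 68.4 in SkBr3/Lap (7.06-fold after scaling) and up from 53.8 to 366 in BT474/Lap (4.69-fold). In all, 2 of 12 measured genes of the list were higher and 2 lower in SkBr3/Lap, and 4 were higher and 0 lower in BT474/Lap. Over all genes the shares were 13.5% and 13.0% in SkBr3/Lap and 8.6% and 5.15% in BT474/Lap. Among the higher genes, LRRC32 reached the signal minimum on BT474/Lap alone and ITGB8 on SkBr3/Lap alone. They could thus enter only through the array where they were high.

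Of 8 measured receptor partners, 1 was higher and 1 lower in SkBr3/Lap and 0 passed 2-fold in BT474/Lap. Over all genes 13.5% were higher and 13.0% lower in SkBr3/Lap, and 8.6% and 5.15% in BT474/Lap. ENG (endoglin, a co-receptor related to TGFBR3) was 3.65-fold higher in SkBr3/Lap (476 to 3225) and gave 13.7, not well above background, and 24.8 in BT474 and BT474/Lap. ZFYVE9, which brings SMAD2 and SMAD3 to the receptor, had the largest BT474/Lap change of this list, 0.80 on the log2 scale, and changed by -0.85 in SkBr3/Lap. Of the 4 other SMADs, SMAD6, an inhibitor of the BMP branch, was 7.01-fold lower in SkBr3/Lap (356 to 94.6). SMAD9, a BMP receptor SMAD, was 3.54-fold higher in BT474/Lap (45.1 to 232). It reached the signal minimum on BT474/Lap alone, so it could enter only through the array where it was high. Of 12 SMAD repressors and ligases, only SKIL (SnoN, a SMAD co-repressor) passed 2-fold in a clone, 3.90-fold higher in BT474/Lap, and NEDD4L, a ubiquitin ligase of phosphorylated SMADs, changed most in SkBr3/Lap at 0.97, where its other probes gave 1.53 and 1.72. None of the 7 measured SMAD partners and coactivators passed 2-fold in either clone, the largest values being 0.70 for EP300 in SkBr3/Lap and 0.53 for CREBBP in BT474/Lap.

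In the activin branch, which uses the same SMAD2 and SMAD3, 4 of 7 measured genes were higher and 0 lower in SkBr3/Lap, and 0 were higher and 1 lower in BT474/Lap. Over all genes the shares were 13.5% and 13.0% in SkBr3/Lap and 8.6% and 5.15% in BT474/Lap. Of the 4 higher genes, ACVR2A reached the signal minimum on the clone arrays alone and INHBA on SkBr3/Lap alone, so they could enter only through arrays where they were high. FSTL3, a secreted activin antagonist, was 16.3-fold higher in SkBr3/Lap (253 to 7638) and changed by -0.15 in BT474/Lap. GDF11, an activin-like ligand, went up from 246 to 1136 in SkBr3/Lap (2.48-fold after scaling) and down from 176 to 81.5 in BT474/Lap (3.14-fold).

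Genes that TGF-beta is known to induce did not move one way. Of 19 measured, 4 were higher and 4 lower in SkBr3/Lap, and 3 were higher and 2 lower in BT474/Lap, with medians of 0.27 and 0.00. The shares over all genes were 13.5% and 13.0% in SkBr3/Lap and 8.6% and 5.15% in BT474/Lap. Among the higher genes, COL4A1 reached the signal minimum on SkBr3/Lap alone and SNAI2 on BT474/Lap alone. Both could thus enter only through the array where they were high. NEDD9, a scaffold of focal adhesions, gave 456 in SkBr3 and 5410 in its clone, and 369 in BT474 and 1808 in its clone, a rise of 6.38-fold and 3.38-fold. IL11, a cytokine, was 9.71-fold lower in SkBr3/Lap and 2.07-fold lower in BT474/Lap. It reached the signal minimum on the parental SkBr3 array alone, where it was high. TAGLN (transgelin, an actin-binding protein) went from 234 to 5513 in SkBr3/Lap (12.7-fold) and from 180 to 385 in BT474/Lap (1.48-fold), with its second probe at 3.75 and 0.54 on the log2 scale. BHLHE40, a transcriptional repressor, was 5.86-fold lower in BT474/Lap and changed by 0.87 in SkBr3/Lap. Of 5 genes that TGF-beta is known to repress, ID1, an inhibitor of basic helix-loop-helix factors, went down from 34390 to 4158 in SkBr3/Lap (15.4-fold after scaling) and up from 14120 to 55060 in BT474/Lap (2.69-fold), and its relative ID3 was 4.36-fold higher in BT474/Lap and changed by -0.92 in SkBr3/Lap.

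**Figure D4:**
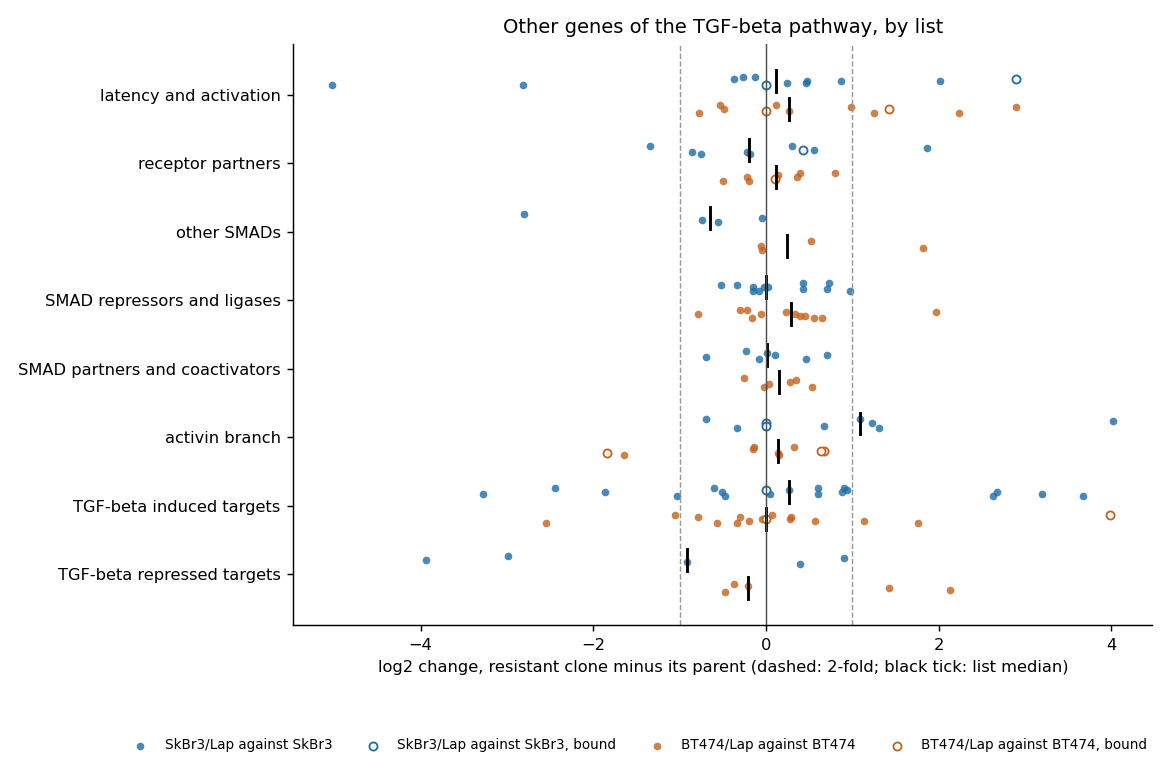
Log2 change from parent to resistant clone (x axis) for the genes of the 8 pathway lists (rows) that gave a value. There is 1 point per gene, with SkBr3/Lap in blue, BT474/Lap in orange and open points for bounds. A bound that reaches no change is drawn at 0. ACVRL1, INHBE and ACVR1C are drawn although they were under the signal minimum, and the medians and the counts in the text leave them out. Black ticks are list medians and dashed lines mark 2-fold. Genes of most lists lie on either side of 0, with PLAU farthest to the left, at 32.5-fold lower in SkBr3/Lap, and FSTL3 farthest to the right, at 16.3-fold higher in SkBr3/Lap.

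**Figure D5:**
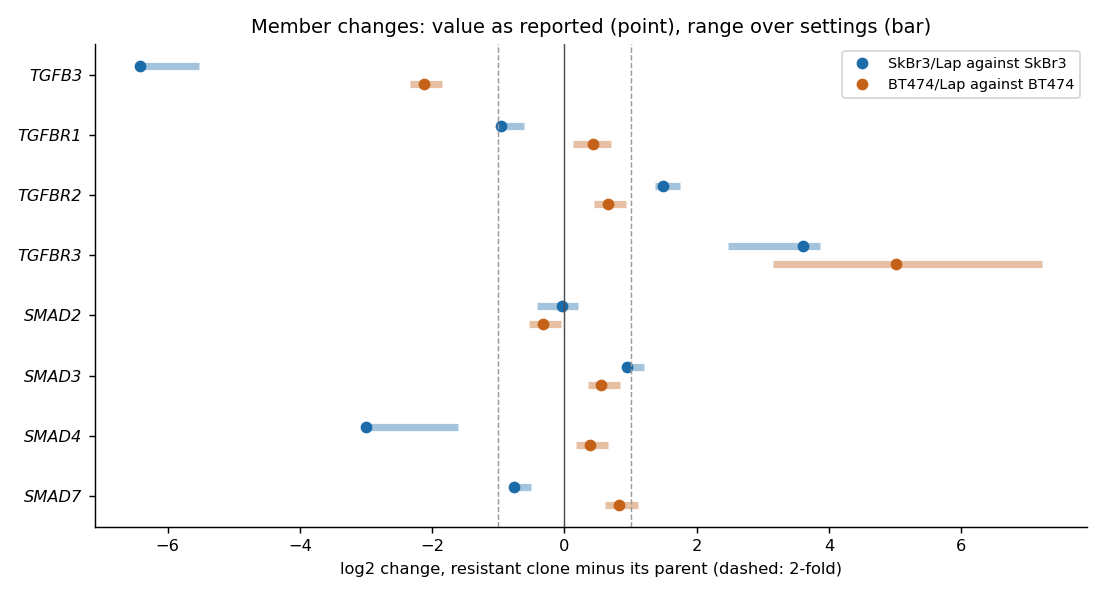
Log2 change of the 8 compared members (rows) in each clone, with the value reported above as a point and the lowest to highest value over the processing alternatives as a bar (x axis, dashed lines at 2-fold). The bars of TGFB3, TGFBR3 and the SkBr3/Lap changes of TGFBR2 and SMAD4 stay beyond 2-fold, while those of SMAD3 in SkBr3/Lap and SMAD7 in BT474/Lap reach across it.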

How the data were processed

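Expression was measured once in each of 4 cultures on Agilent whole-genome arrays. Per the file headers, the deposited intensity values come from Feature Extraction 10.1.1.1 in 1 channel (Cy3), which subtracted background and detrended each spot (the study's methods name another version, Cy3 or Cy5, and LOWESS). The authors also deposited a log2 table, whose differences between arrays match the scaled log2 signal within 0.617 and whose rows carry a probe offset of unknown origin; its column medians were 0.125, -0.198, 0.106 and -0.046 for SkBr3, SkBr3/Lap, BT474 and BT474/Lap. It was used as an alternative. Other columns used, per the file headers, are median signals, local backgrounds and quality flags. Probes were summarised as the mean log2 of their spots minus the 75th percentile over 41000 non-control probes, and 25927 with a signal of at least 100 on at least 1 array were kept. A probe was well above background if at least 50% of its spots were so flagged. A gene was read from its kept probe of highest mean level, through RefSeq accessions (23680 probes with 1 symbol, 16422 genes). A change of 2-fold was called. Where 1 array was not well above background, the change is a bound against the lowest signal well above background. Limma 3.58.1 (R 4.3.3) tested resistant clones against parents with cell line as a block. Tables used Python 3.11.15, numpy 2.4.6 and pandas 2.3.3, and figures matplotlib 3.10.9. The steps were tested on simulated data. Named genes were all members, list genes changed 2-fold the same way in both clones, and the largest change per list and clone among genes well above background. Also named were the 3 nearest genes to the most variable of the members well above background on all 4 arrays. FBN1 was named after its values were seen, and INHBA, ACVR2A, ITGB8, COL4A1 and SNAI2 for how they passed the signal minimum. The members, lists and rules were chosen with earlier results of these data known. Labels number the SkBr3 clone 3 and the BT474 clone 6, while the study's text numbers them the other way; clones are named here by line. The number of arrays limits the precision.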

Additional observations from a re-analysis of the deposited data

Results flagged for a closer look

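Several genes changed with opposite sign in the 2 clones. Each difference, given as the SkBr3/Lap log2 change minus the BT474/Lap log2 change, rests on 1 array per group and was not tested. Among the members it was -1.38 for TGFBR1, -3.38 for SMAD4 and -1.58 for SMAD7. Among the list genes, it was -5.05 for FBN1, -6.01 for PLAU, -1.66 for ZFYVE9, -3.33 for SMAD6, -2.57 for SMAD9, -2.49 for SKIL, -0.60 for CREBBP, -5.37 for ID1 and -3.04 for ID3. It was positive for GDF11 at 2.96, FSTL3 at 4.17 and BHLHE40 at 3.43. Some of these signs rest on a change near 0. CREBBP changed by -0.08 in SkBr3/Lap, where another of its probes gave 0.29, and FSTL3 changed by -0.15 in BT474/Lap.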

How the results depend on the processing

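Counts of 2-fold members and list genes and the limma count were recomputed under the alternatives. With the 75th percentile taken over probes well above background, 17 list genes were higher in SkBr3/Lap, 2 members (TGFBR3 and SMAD7) were higher in BT474/Lap, and 2 (SMAD4 and SMAD7) were lower in SkBr3 than in BT474. Median scaling also gave 17 higher list genes in SkBr3/Lap. With probes well above background on all 4 arrays, TGFBR3 drops out, leaving 1 higher member and 7 higher list genes in SkBr3/Lap and 0 higher members in BT474/Lap. At 3-fold, 1 member was higher in SkBr3/Lap, 7 list genes in BT474/Lap and 1 member in SkBr3 against BT474. The other 115 recomputed counts stayed within 1.5 times the reported ones. Scaling shifts all genes: over probes well above background the median gene changed by 0.19 in SkBr3/Lap and 0.20 in BT474/Lap, against -0.06 and -0.09, and the higher share of 2-fold genes went from 50.9% to 65.6% and from 62.6% to 79.4%; median scaling gave a BT474/Lap median of -0.29 and a share of 45.8%. With slide in place of cell line as the block, and equally without the SkBr3/Lap array, the limma effect became -0.0027 for TGFBR2 and 1.53 for SMAD4. Both fits have no cell line term and compare BT474/Lap with the mean of both parents. The difference between the lines is therefore part of these values. From BT474 to BT474/Lap the changes were 0.65 for TGFBR2 and 0.38 for SMAD4. The 4 fits that leave out 1 array have no cell line term either. Over them, the limma effect ranged from -5.99 to -2.56 for TGFB3, from -0.0027 to 2.15 for TGFBR2 and from -4.14 to 1.53 for SMAD4. The limma count stayed at 0 in every fit, with 181 to 1254 probes at an unadjusted p under 0.05 when each array was left out. No paired analysis was possible because the groups share only replicate number 1, other than the pairing of clone and parent by cell line that the reported limma fit has as its block. Leaving out an array leaves no fold for its line.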
